A study of Drosophila melanogaster with 4 samples.

Results

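Endocytosis and endosomal sorting were followed through 9 genes: Chc, shi, Rab5, Rab4, Rab11, Rab7, Hrs, Stam and car. They were chosen by name, as FlyBase symbols looked up by gene ID, and make up 9 of the 13585 distinct gene IDs in the deposited table. The 9 genes and the wider lists below were chosen with earlier results of these data known. Their counts beside all-gene shares are therefore descriptions and not independent support. All 9 had a row and all 9 passed the filter on low values that 8560 genes passed (an average of 1 CPM or more over the libraries, CPM being the count scaled to a common library total). The study sequenced poly(A) RNA from Drosophila melanogaster midguts, the main digestive and absorptive part of the fly gut. It has 4 libraries, 1 from each of uracil-treated flies at 16 h, untreated control flies at 16 h, uracil-treated flies at 2 h and untreated control flies at 2 h. Nothing but uracil separates treated from control flies in the labels. The sources used here do not give the uracil dose, its route, the strain, age and sex of the flies, the number of guts in a library or the event from which the hours run. With 1 library per group there is no replicate error, so a difference between single libraries is given as a ratio with a 95% interval that covers the counting of reads only.

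Endocytosis brings membrane, receptors and gut contents into a cell in vesicles. Clathrin coats the budding vesicle, dynamin cuts it off, and small GTPases of the Rab family then mark the compartments it passes through: Rab5 the early endosome, Rab4 and Rab11 the routes back to the surface, Rab7 the late endosome. At the early endosome, cargo tagged with ubiquitin is held by the ESCRT-0 complex of Hrs and Stam and handed to later ESCRT complexes (endosomal sorting complexes required for transport), which fold it into internal vesicles for breakdown in the lysosome. Uracil is released by some gut bacteria and is known to activate the oxidase Duox in the fly gut. Hedgehog signalling and endosomes carrying the cadherin Cad99C are known to be needed for that activation. Endosomal genes are compared here between uracil-treated and untreated midguts by mRNA level, which measures neither endosomes nor Duox activity.

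The uracil 16 h library held 8841796 reads in genes and the untreated 16 h library 16588143, while the uracil 2 h library held 8990316 and the untreated 2 h library 8500378. Each of the 9 genes had between 345 and 10282 reads per library. The tissue label was checked with 9 midgut genes, among them the brush border myosin gene Myo31DF and the trypsin genes alphaTry and betaTry. Their summed level was 22490 normalized counts in uracil 16 h, 22550 in untreated 16 h, 30110 in uracil 2 h and 33120 in untreated 2 h. Markers of neighbouring tissues were not even between the libraries. The Malpighian tubule genes Uro and NaPi-T together had 434 normalized counts in uracil 16 h against 124 in untreated 16 h, and 29.8 in uracil 2 h against 132 in untreated 2 h. The muscle gene Mlc2 had 379 in uracil 16 h against 139 in untreated 16 h, and 293 in uracil 2 h against 212 in untreated 2 h. The hemocyte genes Hml and NimC1 together had 3.55 in uracil 16 h against 13.2 in untreated 16 h, and 8.15 in uracil 2 h against 21.7 in untreated 2 h. The oocyte gene osk had 29.6 in uracil 16 h against 0.175 in untreated 16 h, and 23.3 in uracil 2 h against 3.8 in untreated 2 h, while the yolk protein gene Yp1 had 384 in uracil 16 h against 582 in untreated 16 h, and 566 in uracil 2 h against 580 in untreated 2 h. The part of these tissues in the differences below was not tested.

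The genes differed widely in level. Per kilobase of exon, Rab7 was the highest, at 243 to 365 normalized counts per kilobase over the 4 libraries, and Rab11 was next at 215 to 308, so that their ranges overlapped. Rab5 (156 to 194) and the clathrin heavy chain gene Chc (99.97 to 131) followed, each with a range clear of its neighbours. Rab4 (63.7 to 87.6) and Stam (53.3 to 99.4) overlapped each other, as did the dynamin gene shi (29.9 to 36.8) and Hrs (20.8 to 42.5). The lowest was car, which encodes a Vps33A-type subunit of the HOPS tethering complex of late endosomes and lysosomes, at 11.9 to 14.9 normalized counts per kilobase. With the length of the canonical transcript in place of all exons the order of the 9 mean levels was the same, although shi then averaged 52.7 in place of 32.6 and Rab5 averaged 218 in place of 172 normalized counts per kilobase.

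**Figure D1:**
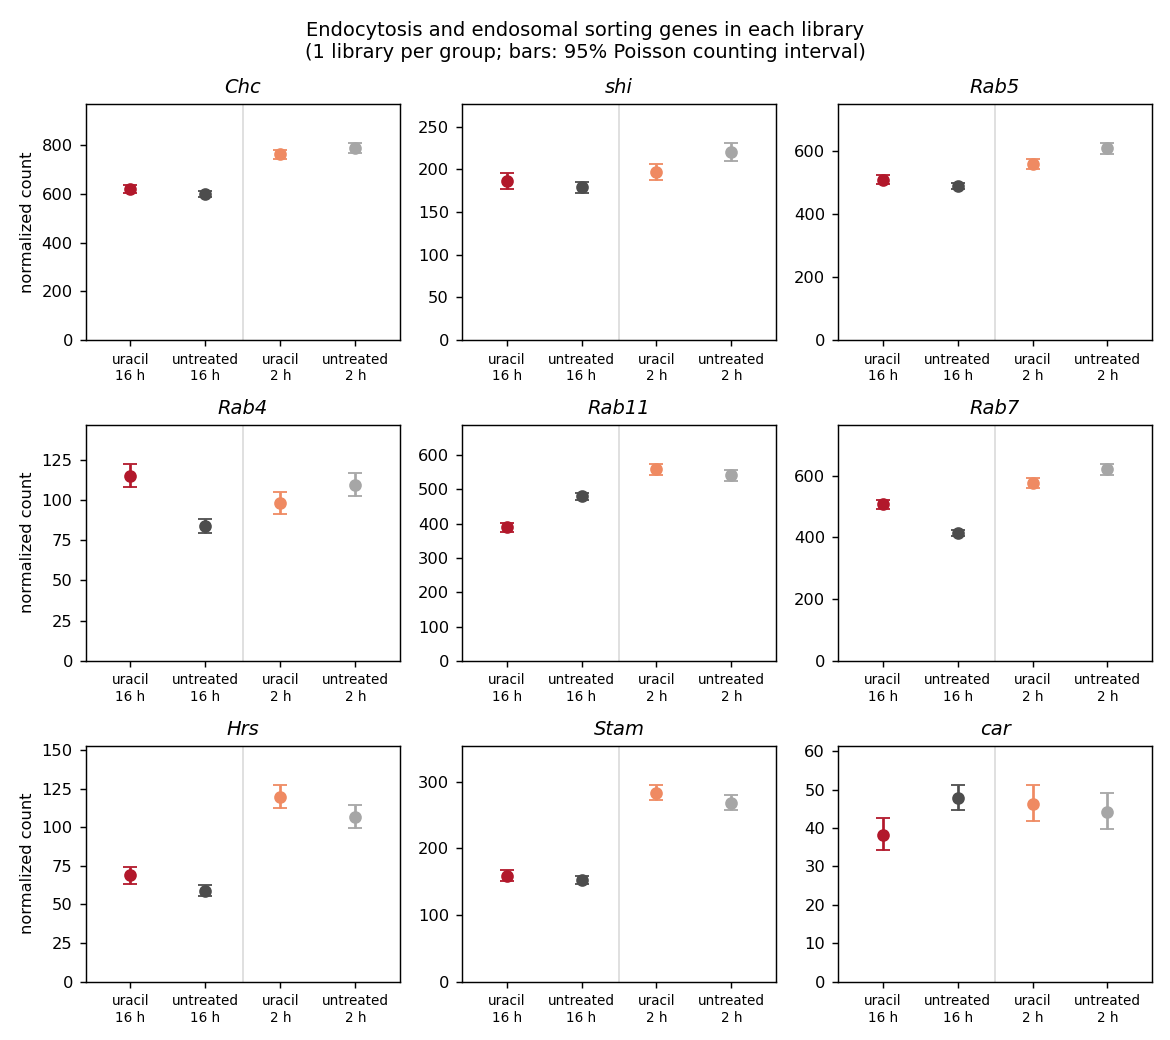
Normalized count of each gene (y axis, from 0) in uracil 16 h, untreated 16 h, uracil 2 h and untreated 2 h (x axis); each point is 1 library and bars are 95% Poisson counting intervals. Hrs and Stam are low in both 16 h libraries, Rab4 and Rab7 stand higher in uracil 16 h than in untreated 16 h, and Rab11 and car stand lower there.

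At 16 h, uracil-treated and untreated midguts held the internalization genes at nearly the same level. Chc, the scaffold of the coat, had 620 normalized counts with uracil and 601 without, a ratio of 1.03 (95% counting interval 0.999 to 1.07). The gene shi, which encodes the dynamin that cuts vesicles from the membrane, had 186 with uracil and 179 without, a ratio of 1.04 (0.981 to 1.11). Both intervals included 1, but they do not cover the scaling of the libraries. With upper quartile scaling the log2 ratio was 0.08 in place of 0.05 for Chc and 0.09 in place of 0.06 for shi.

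The Rab genes were apart in different directions at 16 h. Rab4, of the fast recycling route, had 115 normalized counts with uracil against 83.8 without (ratio 1.37, 1.27 to 1.49). Rab7, of the late endosome, had 506 with uracil against 413 without (ratio 1.23, 1.18 to 1.27). Rab11, of the recycling endosome, had 390 with uracil against 480 without (ratio 0.812, 0.781 to 0.845). The recycling genes Rab4 and Rab11 thus stood on opposite sides of the untreated library. Rab5, of the early endosome, had 510 with uracil against 489 without, a ratio of 1.04 (1.01 to 1.08).

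Of the sorting genes at 16 h, Hrs, whose product binds ubiquitin and sits on the endosome membrane, had 68.8 normalized counts with uracil and 58.8 without (ratio 1.17, 1.06 to 1.29). Its partner Stam had 159 with uracil and 152 without (ratio 1.04, 0.979 to 1.11). The HOPS gene car had 38.3 with uracil and 47.8 without (ratio 0.8, 0.703 to 0.908). No gene of the 9 was 2-fold apart at 16 h, where 8.66% of all 8560 genes were. Here and below, 2-fold counts are taken on the log2 scale after a pseudocount of 1.02 normalized counts is added to each value, which draws the ratios of low genes towards 1. By the counting interval alone, 4 of the 9 were higher with uracil (Rab4, Rab5, Rab7 and Hrs), where 31.2% of all genes were, and 2 were lower (Rab11 and car), where 34.3% were. Most of all genes tested thus differed at 16 h by more than the counting of reads. A counting interval narrows with read depth. The mean normalized counts of the 9 genes lay above those of 54.5% (car) to 97.0% (Chc) of the genes tested. Here and below, the all-gene shares by counting interval are therefore not matched to the 9 genes for depth.

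At 2 h, Chc had 764 normalized counts with uracil and 789 without, a ratio of 0.967 (0.934 to 1.002), and shi had 197 with uracil and 220 without, a ratio of 0.894 (0.835 to 0.956). Rab5 had 561 with uracil and 609 without (ratio 0.921, 0.885 to 0.959), and Rab7 had 575 with uracil and 620 without (ratio 0.928, 0.892 to 0.966). Rab4 had 97.9 with uracil and 110 without (ratio 0.894, 0.812 to 0.984). The intervals of Rab4, Rab5, Rab7 and shi lay below 1, and that of Chc included it.

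Rab11 at 2 h had 558 normalized counts with uracil and 542 without (ratio 1.03, 0.989 to 1.07). Hrs had 120 with uracil and 107 without (ratio 1.12, 1.02 to 1.23), and Stam had 284 with uracil and 269 without (ratio 1.06, 0.996 to 1.12). The level of car was 46.3 with uracil and 44.3 without (ratio 1.05, 0.904 to 1.21). Hrs was thus the single gene of the 9 whose counting interval lay above 1 at 2 h, a range that held 16.6% of all genes, and 4 lay below 1, as did 15.7% of all genes. None was 2-fold apart at 2 h, where 3.0% of all genes were.

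Whether uracil made a difference common to 2 h and 16 h was asked with limma over all 8560 genes, in an additive model of treatment and time. None of the 9 genes passed an adjusted p of 0.05, and none reached an unadjusted p under 0.05. Among all genes limma gave 3 higher (0.035%) and 0 lower at the adjusted threshold, and 3.87% higher and 0.713% lower at the unadjusted one. On the recovered reads, the quasi-likelihood test of edgeR also gave 0 of the 9 genes, against 0.0584% of all genes higher and 0 lower. The likelihood ratio test of edgeR gave 0 of the 9 as well, against 0.771% of all genes higher and 0.0818% lower. The highest mean log2 difference was that of Hrs at 0.19 (SE 0.20, limma adjusted p = 0.999) and the lowest that of Rab11 at -0.13 (SE 0.19, limma adjusted p = 0.999). The fit has 1 residual degree of freedom. Its error joins the disagreement of the times in a gene with a variance trend over all genes, worth 5.33 prior degrees of freedom.

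In no gene of the 9 did both uracil libraries stand above both untreated libraries, a separation seen in 11.8% of all genes, and in none did both stand below them, also 11.8% of all genes. Rab4, Rab5 and Rab7 were higher with uracil at 16 h and lower at 2 h with both counting intervals clear of 1. Such opposite ratios, in either order, were found in 13.8% of all genes, a share not matched for read depth. The 16 h interval of Rab5 lay close to 1 (1.01 to 1.08). With each library scaled to the same total, the log2 ratio of Rab5 at 16 h was 0.04 in place of 0.06. With median-of-ratios scaling, that of Chc was 0.051 in place of 0.046 at 16 h and -0.062 in place of -0.048 at 2 h. The counting intervals do not cover the scaling of the libraries. Which genes have both intervals clear of 1 was not recounted under other scalings, so the listing of Rab5 and the absence of Chc rest on the deposited one. For Rab4 the log2 ratio at 16 h exceeded that at 2 h by 0.61, with a counting SE of 0.09. For Rab7 this difference was 0.40 (counting SE 0.04) and for Rab5 0.18 (counting SE 0.04). It was -0.34 for Rab11 (counting SE 0.04) and -0.38 for car (counting SE 0.14). No difference of this kind reached 2-fold in the 9 genes, against 10.1% of all genes, and with 1 library per group it could not be tested.

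**Figure D2:**
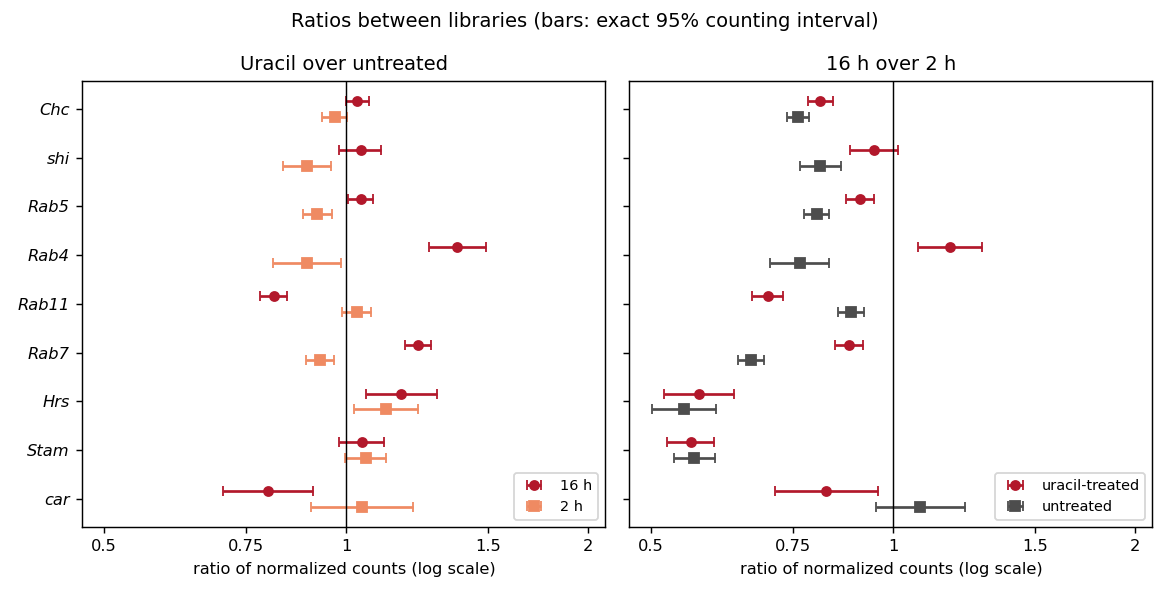
Ratios of normalized counts on a log axis, uracil over untreated at 16 h and 2 h (left) and 16 h over 2 h in uracil-treated and untreated midguts (right); bars are exact 95% counting intervals and the vertical line marks 1. On the left most genes lie near 1 with Rab4 at 1.37 and car at 0.8 as the extremes at 16 h; on the right Hrs and Stam lie between 0.55 and 0.574 in both treatments.

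Ratios between genes within a library do not depend on how libraries are scaled against each other. Stam had 2.28 times the reads per kilobase of Hrs in uracil 16 h (2.08 to 2.51), 2.56 times in untreated 16 h (2.38 to 2.75), 2.34 times in uracil 2 h (2.17 to 2.52) and 2.48 times in untreated 2 h (2.29 to 2.69). The 4 intervals overlapped, and a difference between libraries in the proportion of these partners of 1 complex was not tested. Rab4 had 0.408 times the reads per kilobase of Rab11 in uracil 16 h (0.38 to 0.437), against 0.241 in untreated 16 h (0.228 to 0.255), and 0.242 in uracil 2 h (0.225 to 0.261), against 0.279 in untreated 2 h (0.259 to 0.3). The uracil 16 h library therefore stood apart from the other 3 in the proportion of these recycling genes. Those 3 were not alike either, as the interval of untreated 2 h lay clear of that of untreated 16 h.

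Rab7 over Rab11 was 1.39 in uracil 16 h (1.33 to 1.45), against 0.918 in untreated 16 h (0.889 to 0.947), and 1.1 in uracil 2 h (1.06 to 1.15), against 1.22 in untreated 2 h (1.17 to 1.27). Rab5 over Rab11 was 0.755 in uracil 16 h (0.722 to 0.789), against 0.588 in untreated 16 h, and 0.58 in uracil 2 h, against 0.648 in untreated 2 h. Both proportions were highest in uracil 16 h. Rab7 over Rab5 was instead set apart in the untreated 16 h library, at 1.84 in uracil 16 h against 1.56 in untreated 16 h (1.51 to 1.61), and at 1.9 in uracil 2 h against 1.88 in untreated 2 h. Chc over shi was 3.32 in uracil 16 h and 3.35 in untreated 16 h, and 3.87 in uracil 2 h and 3.57 in untreated 2 h.

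**Figure D3:**
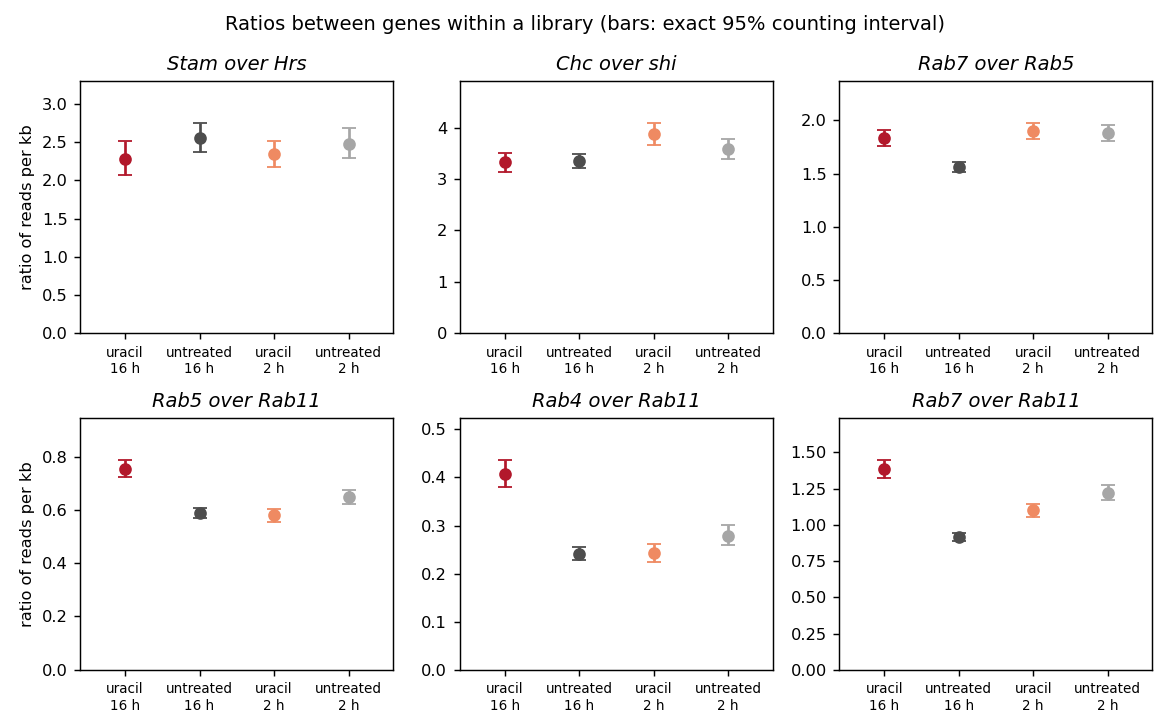
Ratio of reads per kilobase of exon between pairs of the genes (y axis, from 0) in each library (x axis); bars are exact 95% counting intervals. Stam over Hrs runs from 2.28 to 2.56, and all 3 ratios over Rab11 are highest in uracil 16 h.

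The ratios farthest from 1 among the 9 genes were those of the ESCRT-0 pair between the times. Hrs had 68.8 normalized counts in uracil 16 h and 58.8 in untreated 16 h, against 120 in uracil 2 h and 107 in untreated 2 h. Stam had 159 in uracil 16 h and 152 in untreated 16 h, against 284 in uracil 2 h and 269 in untreated 2 h. Both 16 h libraries lay well below both 2 h libraries for each gene. In bulk tissue, less of an mRNA per cell and fewer of the cells that hold it cannot be told apart.

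The ratio of 16 h over 2 h for Hrs was 0.574 (0.519 to 0.635) in uracil-treated and 0.55 (0.501 to 0.603) in untreated midguts. For Stam it was 0.56 (0.524 to 0.598) in uracil-treated and 0.566 (0.534 to 0.6) in untreated midguts. In the additive model the time effect on the log2 scale was -0.82 for Hrs (SE 0.20, limma unadjusted p = 0.00583, adjusted p = 0.141) and -0.82 for Stam (SE 0.19, limma unadjusted p = 0.00412, adjusted p = 0.121). Neither passed the adjusted threshold, which 16 genes (0.187%) passed as higher and 20 (0.234%) as lower at 16 h. The edgeR quasi-likelihood adjusted p was 0.188 for Hrs and 0.161 for Stam, and that test called 0.0584% of all genes in each direction. The edgeR likelihood ratio test called 0 of the 9, against 2.64% of all genes higher and 1.67% lower. Without the filter on low values, limma called 329 of 11850 genes for time, against 36 in the reported fit. In that unfiltered fit Stam passed (limma adjusted p = 0.0414) and Hrs did not (limma adjusted p = 0.0548). Of all 8560 genes, 3.17% had a time effect as low as that of Hrs or lower. At an unadjusted p under 0.05, limma gave 2 of the 9 genes as lower at 16 h, Hrs and Stam, against 7.32% of all genes, and 0 as higher, against 8.66%.

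Most of the other genes were also lower at 16 h, by less. Rab7 had a 16 h over 2 h ratio of 0.881 (0.846 to 0.917) with uracil and 0.666 (0.642 to 0.691) without. Rab11 had 0.699 (0.668 to 0.73) with uracil and 0.886 (0.854 to 0.92) without. Chc had 0.812 (0.783 to 0.841) with uracil and 0.761 (0.737 to 0.785) without. The lower ratio was thus that of the uracil-treated guts for Rab11 and that of the untreated guts for Rab7 and Chc, by little for Chc.

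Rab5 had a 16 h over 2 h ratio of 0.91 (0.873 to 0.947) with uracil and 0.804 (0.775 to 0.833) without, and shi had 0.947 (0.884 to 1.01) with uracil and 0.812 (0.765 to 0.862) without. Rab4 was higher at 16 h with uracil and lower without, at 1.18 (1.07 to 1.29) with uracil and 0.765 (0.703 to 0.833) without. The ratio for car was 0.826 (0.713 to 0.957) with uracil and 1.08 (0.952 to 1.23) without, where the interval included 1. The lowest limma adjusted p for the time effect of these 7 genes was 0.39, for Chc, and their time effects ran on the log2 scale from -0.38 for Rab7 to -0.08 for Rab4.

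Both 16 h libraries lay below both 2 h libraries in 7 of the 9 genes, all but Rab4 and car, and in 25.2% of all genes. Among the 6576 genes that averaged 10 CPM or more, as all 9 did, the share was 28.8%. The reverse order held for 0 of the 9 and for 24.8% of all genes. With each library scaled to the same total, which moves the all-gene median ratio of 16 h over 2 h in untreated midguts to 0.18 in place of 0.04 on the log2 scale, shi no longer met this and the count was 6, beside 15.3% of all genes. No gene of the 9 was 2-fold apart between the times, against 12.3% of all genes in uracil-treated and 5.64% in untreated midguts. The median log2 ratio of the 9 genes was -0.27 in uracil-treated midguts, against -0.01 over all genes, and -0.38 in untreated midguts, against 0.04 over all genes. By the counting interval, 7 of the 9 were lower at 16 h in uracil-treated midguts (31.5% of all genes) and 1, Rab4, was higher (28.7%). In untreated midguts 8 were lower (27.6%) and 0 higher (31.1%). These all-gene shares are not matched for read depth, on which the counting interval depends. As the 9 genes were chosen with earlier results of these data known, their counts and medians here are descriptions only.

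**Figure D4:**
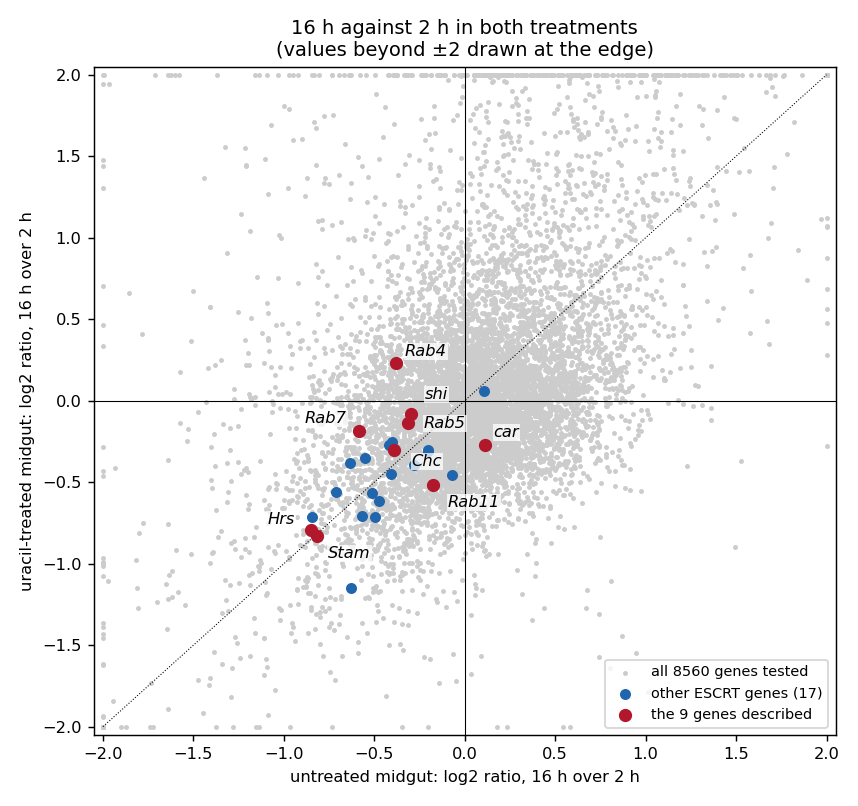
Log2 ratio of 16 h over 2 h in untreated (x axis) and uracil-treated midguts (y axis) for all 8560 genes tested (grey), 17 further ESCRT genes (blue) and the 9 genes described (red); the dotted line marks equal ratios. Hrs and Stam lie on the line near -0.8, and 16 of the 17 further ESCRT genes lie below 0 in both treatments.

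Among the 9 genes, profiles over the 4 libraries (log2 levels less the gene's own mean) were compared by Euclidean distance in all 36 pairs, whose median distance was 0.42. The closest pair was Rab5 and shi at 0.0477, followed by Hrs and Stam at 0.128 and by Rab5 and Chc at 0.132. The most distant pair was Hrs and car at 0.837. Of 6567 other genes that averaged 10 CPM or more, the 5 nearest to the mean profile of the 9 were Rad23 (distance 0.00834), Nedd4 (0.0254), CG32137 (0.0341), Gdi (0.0411) and Diap1 (0.0462). Nearest to the profile of Hrs, the gene with the widest range, were CG12795 (0.0208), CG13510 (0.0304) and the ESCRT gene Vps60 (0.0577). These likenesses rest on 4 libraries.

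The wider endocytic machinery was read from 7 lists with 144 genes, of which 127 were found in the table and 120 passed the filter and were counted. None of the 120 passed limma's adjusted threshold for uracil or for time. For uracil at 16 h, 1 was 2-fold higher, against 7.66% of all genes, and 0 were 2-fold lower, against 0.993%. At 2 h, 0 were 2-fold higher (1.5% of all genes) and 0 lower (1.51%). By plain ratios with no pseudocount, a check added after the values were seen, 4 were 2-fold higher at 16 h (nuf, Pldn at 2.08, Rab23 at 3.80 and the BLOC-1 gene Blos4 at 2.07) and 1 at 2 h (Rab23 at 2.14), and 0 were lower at either time. The gene counted as higher at 16 h was nuf, which encodes a partner of Rab11 at the recycling endosome, at 79.3 normalized counts in uracil 16 h against 36.6 in untreated 16 h (ratio 2.17), and 37.2 in uracil 2 h against 38.2 in untreated 2 h. Rab11 was lowest in that same uracil 16 h library, but it was 480 in untreated 16 h and 558 in uracil 2 h, where nuf was nearly level. A relation between the 2 genes was not tested. The lowest uracil ratio of the same list at 16 h was that of Past1, an EHD-family gene of endocytic recycling, at 167 normalized counts with uracil against 277 without, and 257 with uracil against 220 without at 2 h.

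At the extremes of the other lists at 16 h, Rab23 had 1.77 normalized counts with uracil against 0.467 without, at few reads, and Rab35, of another recycling route, had 58.9 against 81.9. In the clathrin list AP-1sigma, an adaptor subunit, had 65.3 with uracil against 52.2 without, and stnA had 5.43 against 8.7. The annotation gives stnA the same exons as its neighbour stnB, so its count is uncertain. Of the early endosome genes, Vps45 had 42.9 with uracil against 33.5 without, and Gapvd1 had 106 against 137. Of the HOPS and late endosome genes, Vps33B, a paralogue of car, had 14 with uracil against 9.93 without, and dor, whose product works in HOPS beside that of car, had 31.3 against 46.9. Pldn, of the BLOC-1 complex, had 17.4 with uracil against 8.35 without at 16 h, and 17.1 with uracil against 20.3 without at 2 h, and overlaps the gene Sugb on the other strand, and ca, a Rab exchange factor gene of pigment granules, had 79.1 against 91.4. The list medians of the uracil log2 ratio at 16 h ran from -0.16 (retromer and recycling) to 0.18 (late endosome and HOPS), against 0.06 for the 9 genes and -0.02 over all genes.

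Between the times, most genes of the ESCRT list were lower at 16 h, as Hrs and Stam were. The list had 17 measured genes, which included neither that pair nor Vps4, for which no row was found. Of the 17 genes, 16 had both 16 h libraries below both 2 h libraries. The remaining 1, the deubiquitinase gene Usp8, had both above. Both 16 h libraries lay below in 25.2% of all genes, and in 28.8% of the 6576 genes that averaged 10 CPM or more, as all 17 did. With each library scaled to the same total the count was 15 of 17, against 15.3% of all genes, and the median time effect of the list was -0.32 against 0.15 over all genes. As deposited, the median time effect was -0.45 on the log2 scale, against 0.02 over all genes, and the lowest adjusted p was 0.152 (limma), so that no single gene passed. Vps60 had 81 normalized counts in uracil 16 h and 66.6 in untreated 16 h, against 134 in uracil 2 h and 121 in untreated 2 h. Chmp1 had 176 in uracil 16 h and 157 in untreated 16 h, against 260 in uracil 2 h and 259 in untreated 2 h. Both encode charged proteins of the ESCRT-III family, whose filaments close the internal vesicles.

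CHMP2B, of the same family, had 50.1 normalized counts in uracil 16 h and 59.2 in untreated 16 h, against 112 in uracil 2 h and 91.9 in untreated 2 h. It was the only ESCRT gene 2-fold apart in any comparison and had the lowest uracil ratio of the list at 16 h. Vps2, with the highest, had 95 in uracil 16 h and 74.1 in untreated 16 h, against 124 in uracil 2 h and 116 in untreated 2 h. TSG101, of ESCRT-I, had 148 in uracil 16 h and 135 in untreated 16 h, against 188 in uracil 2 h and 198 in untreated 2 h. Of the 9 midgut markers, 7 also had both 16 h libraries below both 2 h libraries, among them alphaTry at 4796 in uracil 16 h and 3924 in untreated 16 h, against 6662 in uracil 2 h and 7390 in untreated 2 h. The maltase gene Mal-A1 had both above, at 4021 in uracil 16 h and 5096 in untreated 16 h, against 2697 in uracil 2 h and 3251 in untreated 2 h. The times overlapped for lab, at 59.1 in uracil 16 h and 117.5 in untreated 16 h, against 67.2 in uracil 2 h and 60.1 in untreated 2 h. The part of a change in cell makeup in the ESCRT values was not tested.

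In the other lists, the count of genes with both 16 h libraries below both 2 h libraries was 10 of 19 for other Rab GTPases, 9 of 21 for the clathrin coat and its adaptors, 7 of 13 for the early endosome, 6 of 16 for the late endosome and HOPS, 11 of 22 for retromer and recycling, and 3 of 12 for AP-3 and lysosome-related organelles, beside 25.2% of all genes. With equal totals the counts were 9, 5, 3, 3, 5 and 0 in the same order of lists, beside 15.3% of all genes. The median time effects of these lists lay between -0.26 and -0.05 on the log2 scale as deposited, against 0.02 over all genes. With equal totals they lay between -0.13 and 0.08, against 0.15 over all genes, and the medians of the clathrin list (0.03) and the AP-3 list (0.08) changed sign. Over all 120 genes, 2 were 2-fold higher at 16 h in uracil-treated midguts (9.38% of all genes) and 3 were 2-fold lower (2.9%). In untreated midguts 2 were 2-fold higher (2.8%) and 1 was 2-fold lower (2.84%), or 2 by plain ratios, Pldn at 0.412 and Rab23 at 0.368. Amph, which encodes amphiphysin, a membrane-bending protein, was the highest, at 158 normalized counts in uracil 16 h and 215 in untreated 16 h, against 67.8 in uracil 2 h and 81.4 in untreated 2 h (time effect 1.30, SE 0.20, limma adjusted p = 0.0723). The Rab5 exchange factor gene spri had 34.8 in uracil 16 h and 32.2 in untreated 16 h, against 18.1 in uracil 2 h and 14.3 in untreated 2 h. On the lower side, the syntaxin gene Syx13 had 81.3 in uracil 16 h and 81.6 in untreated 16 h, against 195 in uracil 2 h and 161 in untreated 2 h (time effect -1.11, SE 0.20, limma adjusted p = 0.0877). SH3PX1, a sorting nexin gene, had 131 in uracil 16 h and 159 in untreated 16 h, against 266 in uracil 2 h and 214 in untreated 2 h.

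**Figure D5:**
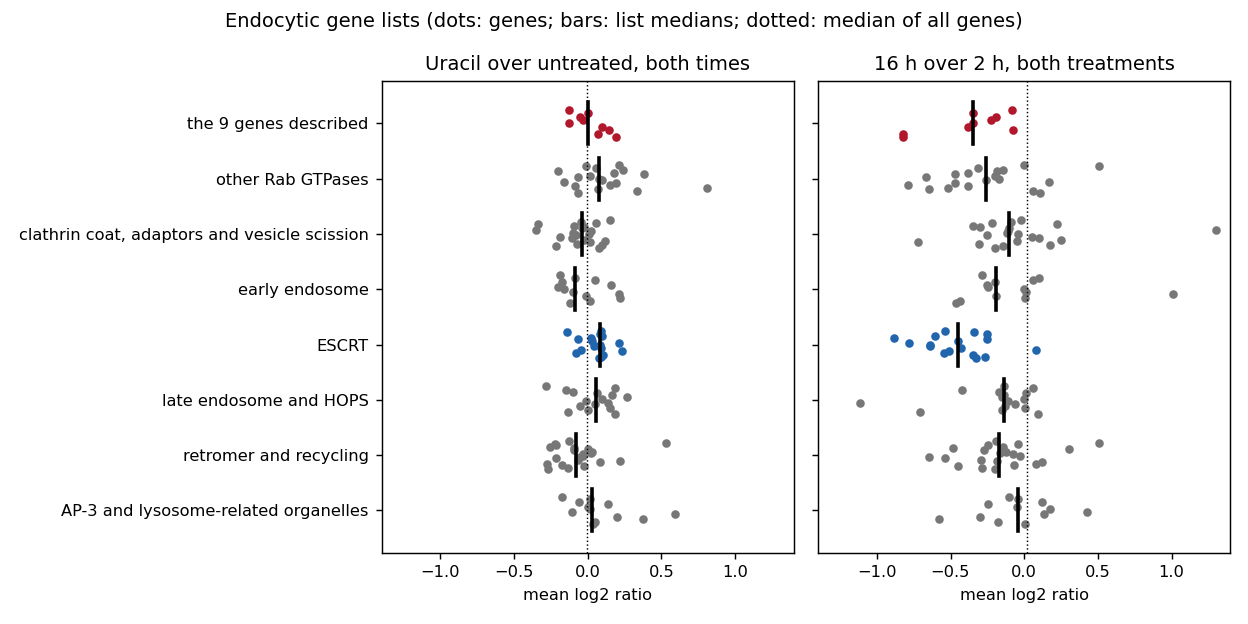
Mean log2 ratio of uracil over untreated across both times (left) and of 16 h over 2 h across both treatments (right) for each gene (dots) of the 9 genes described and 7 wider lists; black bars are list medians and the dotted line is the median of all 8560 genes. List medians for uracil lie near 0, and for time the ESCRT median is the lowest at -0.45, with that of the 9 genes at -0.35.

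By ID in Ensembl release 115 (assembly BDGP6.54, which need not be the build of the reads), Chc (FBgn0000319) lies on chromosome X from 15827986 to 15835490 on the minus strand, and shi (FBgn0003392) on X from 15892116 to 15906716 on the plus strand. Also on X, car (FBgn0000257) lies from 19566019 to 19569401 on the plus strand. Rab5 (FBgn0014010) lies on 2L from 2359142 to 2365273 on the minus strand, Hrs (FBgn0031450) on 2L from 2739986 to 2743377 and Stam (FBgn0027363) on 2L from 10858536 to 10862006, both on the plus strand. Rab11 (FBgn0015790) lies on 3R from 21111408 to 21116146, Rab7 (FBgn0015795) on 3R from 23993008 to 23995452 and Rab4 (FBgn0016701) on 2R from 17573462 to 17574979, all on the plus strand. The ESCRT-0 partners thus lie apart on 1 chromosome arm. Exons of Rab4 share 1 base with Dcr-2 and those of Hrs share 3 bases with CG9961, each on the other strand, and no exon of the other 7 genes overlaps another gene.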

How the data were processed

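Poly(A) RNA of 4 midgut libraries was sequenced. Per the submitters' processing notes, edgeR, HTSeq, Bowtie, TopHat2 2.0.5 and cutadapt 1.0 were used. The sources used here do not state their roles, the genome build, the annotation or the strand setting. Per the file name, the authors deposited normalized counts, a signal for each gene in each library. All values (within 0.01 reads) were multiples of the value of 1 read (0.111, 0.0584, 0.118 and 0.127 for uracil 16 h, untreated 16 h, uracil 2 h and untreated 2 h), which gave back the reads. Lines sharing a gene ID (118 lines, 57 IDs) were summed. Symbols were found by ID for 12888 of 13585 IDs.

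Ratios carry exact (Clopper-Pearson) and levels carry Poisson 95% intervals, which cover only the counting of reads, and reads with no molecular identifier may be copies of 1 molecule. Log2 ratios used a pseudocount of 1.02 (worth 1 CPM), which understates changes of low genes. The 8560 genes averaging 1 CPM or more were fitted with limma 3.58.1 (treatment plus time, trend, Benjamini-Hochberg adjustment at 0.05, 1 residual and 5.33 prior degrees of freedom). The recovered reads were tested with edgeR 4.0.16. Both were tried on simulated data. Lengths are of all exons in Ensembl release 115. The members and lists were chosen with earlier results of these data known. Of the wider lists, genes 2-fold apart in a comparison and those with the highest and lowest uracil ratio at 16 h are named. Chmp1, TSG101 and Usp8 were named after their values were seen. Of the lists' genes, 17 had no row matched by ID, among them Rab1, AP-2alpha, Hsc70-4, Vps16A and the ESCRT gene Vps4. A further 1, AP-1-2beta, shared all counts with another ID. These are not analysed here.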

Additional observations from a re-analysis of the deposited data

Results flagged for a closer look

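A few genes had uracil ratios on opposite sides of 1 at 16 h and at 2 h, with both counting intervals clear of 1. With 1 library per group the difference between the times was not tested. On the log2 scale, the ratio at 16 h exceeded that at 2 h by 0.61 for Rab4, 0.40 for Rab7 and 0.18 for Rab5, whose uracil libraries were higher at 16 h and lower at 2 h. The difference was -0.59 for SH3PX1, -0.52 for CHMP2B and -0.96 for Past1, whose uracil libraries were lower at 16 h and higher at 2 h. Such a pair of opposite ratios was found in 13.8% of all genes, a share not matched for read depth. The 16 h interval of Rab5 lay close to 1 (1.01 to 1.08), and the intervals do not cover the scaling of the libraries.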

How the results depend on the processing

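No paired analysis was possible because each group has 1 library and the labels carry no replicate numbers, and leaving out a library leaves the additive model without residual degrees of freedom. Of 360 log2 ratios of the 9 genes under other pseudocounts, filters and scalings, 345 moved by less than their counting interval, and 3 changed sign: shi for 16 h over 2 h in uracil-treated midguts (0.04 with equal totals) and the difference of uracil ratios for Stam under median-of-ratios and upper quartile scaling. None of 99 tests of the 9 genes for uracil passed the threshold, and 1 of 99 for time did (Stam without the filter, limma adjusted p = 0.0414). In that setting 329 of 11850 genes passed for time. Over the alternatives the adjusted p for time ran from 0.0414 to 0.213 for Stam and from 0.0548 to 0.214 for Hrs.

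With equal totals the median log2 ratio of 16 h over 2 h of the 9 genes was -0.16 in uracil-treated and -0.23 in untreated midguts. Relative to the all-gene median these were -0.25 and -0.41, against -0.26 and -0.42 as deposited. Counts of genes 2-fold apart shrank with a mean of at least 10 CPM, where fewer genes were tested, to 413 against 741 as reported for uracil at 16 h, 133 against 257 at 2 h, 590 against 1051 for time with uracil, 292 against 483 without, and 486 against 866 for the difference of uracil ratios. With a pseudocount worth 4 CPM they were 452, 108 and 239 for uracil at 16 h, at 2 h and time without uracil, and 530 for the difference of uracil ratios. With 0.25 CPM the count at 2 h was 393.

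The number of genes passing for uracil was 3 in the reported fit, 29 without the filter, 14 with equal totals, 5 by the edgeR quasi-likelihood test and 73 by its likelihood ratio test. For time it was 36 in the reported fit, 20 with a pseudocount worth 0.25 CPM, 329 without the filter, 307 with equal totals, 0 without the trend (limma), 10 by the quasi-likelihood test and 369 by the likelihood ratio test. The cause was not tested.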
